A study of Mus musculus with 10 samples.

Results

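The comparison set the loss of Polycomb repressive complex 2 (PRC2) against the loss of Polycomb repressive complex 1 (PRC1) in the same kind of mouse skin cell, gene by gene. For each gene the Eed effect was the log2 ratio of the Eed knockout mean to its control mean (normalised read count + 1), the Ring1 effect was the same ratio for the Ring1a/b double knockout, and the difference was the Eed effect minus the Ring1 effect. The members were the genes whose mean reached 50 in each deposited table: 11290 of the 17756 genes that the tables share, or 63.6%. The last gene inside that limit was Tbx3, with a lower mean of 50.003 and effects of 4.86 and 1.51, and the first outside was Lca5, with 49.99 and effects of 0.094 and 0.26. Of the members, 290 had a control mean under 50 in at least 1 table and so entered through a knockout mean, and 11000 had a control mean of at least 50 in both. A knockout mean under 50 in at least 1 table was found for 155 members, which so entered through a control mean.

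The 10 libraries hold interfollicular epidermis of back skin from mice at postnatal day 71. The cells were sorted as positive for EpCAM and Sca1 with high α6-integrin, the surface of basal keratinocytes. The Eed table holds 3 control libraries and 3 libraries of the knockout, labelled Eed -/-, and the Ring1 table holds 2 control libraries and 2 of the double knockout, labelled Ring1a-/- Ring1b-/- and called Ring1a/b 2KO here. All mice of the treatment protocol were given 4-hydroxytamoxifen (4OH-Tam) on shaved back skin, 100 µl of 20 mg/ml a day for 4 days from postnatal day 50, so collection was 21 days after the first dose. The control genotypes beyond "Control", the Cre driver, the deleted exons and whether each library is a separate mouse do not appear in the sources used here. Each knockout has its own controls, no library is shared between the 2 effects, and p-values measure only the spread between these samples, which may be technical.

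PRC2 places the trimethyl mark on lysine 27 of histone H3 through its EZH enzymes, and Eed is the core subunit that binds this mark and keeps the enzyme active. PRC1 places ubiquitin on histone H2A through its ligases Ring1 (Ring1a) and Rnf2 (Ring1b), and some of its forms are brought to chromatin by the PRC2 mark while others reach CpG-rich promoters without it. In epidermis both complexes are known for keeping genes of other lineages silent.

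The libraries differed in depth and RNA content in ways that touch the difference. The Eed table rests on 31699979 to 40701183 recovered reads a library. The Ring1 control and 2KO libraries held 25158144 and 19814853 reads for replicate 1 and 7162907 and 6237389 for replicate 2. Mitochondrially encoded genes took 2.34% to 3.58% of reads in the Eed table, 6.51% and 7.28% in Ring1 control 1 and 2, and 8.16% and 12.7% in Ring1a/b 2KO 1 and 2. Ring1a/b 2KO 2 stood apart: Fos, an immediate early factor, had a normalised read count of 3781 there against 18838 to 38339.6 in the other Ring1-table libraries. Some values are therefore also given without this library, named 2KO 2 below. The Y-linked genes Ddx3y and Eif2s3y together were high in both Ring1 controls (1665 and 630) but low in both 2KO libraries (9.27 and 50.2), so sex and genotype cannot be told apart in that table for any Ring1 effect or for its difference from the Eed effect, whereas each Eed group held both high and low libraries (25.3 to 5804 in controls, 14.4 to 4743 in knockouts).

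Basal keratinocyte markers were high. Krt5 and Krt14, the basal keratin pair, had counts of at least 107871 and 57540.5 in every library, and the sorted markers Epcam, Ly6a (Sca1) and Itga6 were detected in all 10. The targeted genes did not mark the groups at the level of whole-gene counts. Eed counts were 1845, 1319 and 1706 in the Eed controls against 1412, 1143 and 1339.6 in the knockouts. Ring1 counts were 66.2 and 211 in the Ring1 controls against 104 and 115 in the 2KO libraries, and Rnf2 counts were 675 and 669.7 against 720.1 and 529. The groups overlapped for Eed and for Rnf2, and for Ring1 the 2KO values lay between the controls. Without the deleted exons these sums check no label, and the groups are used as labelled.

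The effects of the 2 losses mostly had the same direction where they were large. Of the 251 members with an Eed effect of at least 1 (2.22% of members), 242 (96.4%) had a Ring1 effect above 0, where 45.2% of all members did, and 174 (69.3%) had a Ring1 effect of at least 1. Of the 357 members with a Ring1 effect of at least 1 (3.16%), 325 (91.0%) had an Eed effect above 0, where 50.5% of all members did, and 174 (48.7%) reached 1. Large negative effects were shared by few genes. Of the 44 members at −1 or lower in the Eed knockout (0.39%), 27 (61.4%) were also at −1 or lower in the 2KO. Of the 258 at −1 or lower in the 2KO (2.29%), 27 (10.5%) were so in the Eed knockout, and their median Eed effect was −0.46. These counts moved with single libraries: without 2KO 2, 146 were at −1 or lower in the 2KO and 21 in both, without 2KO 1 the numbers were 922 and 32, and without Eed knockout 3, 117 were so in the Eed knockout and 54 in both. Effects of at least 1 in both numbered 135 without 2KO 2 and 100 without Eed knockout 1, which left 144 such Eed effects, and at least 84.0% of the genes at 1 or above in either loss kept an effect above 0 in the other in each of these runs. Across the 11290 members the effects had a Pearson r of 0.64 and a Spearman rho of 0.57, a description over genes that share libraries and are not independent replicates. Entry favours agreement among increases, since a gene with control means under 50 in both tables is a member only if it rose in both. Without the 290 members that entered through a knockout mean the Pearson r was 0.62, while the counts above include them.

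**Figure D1:**
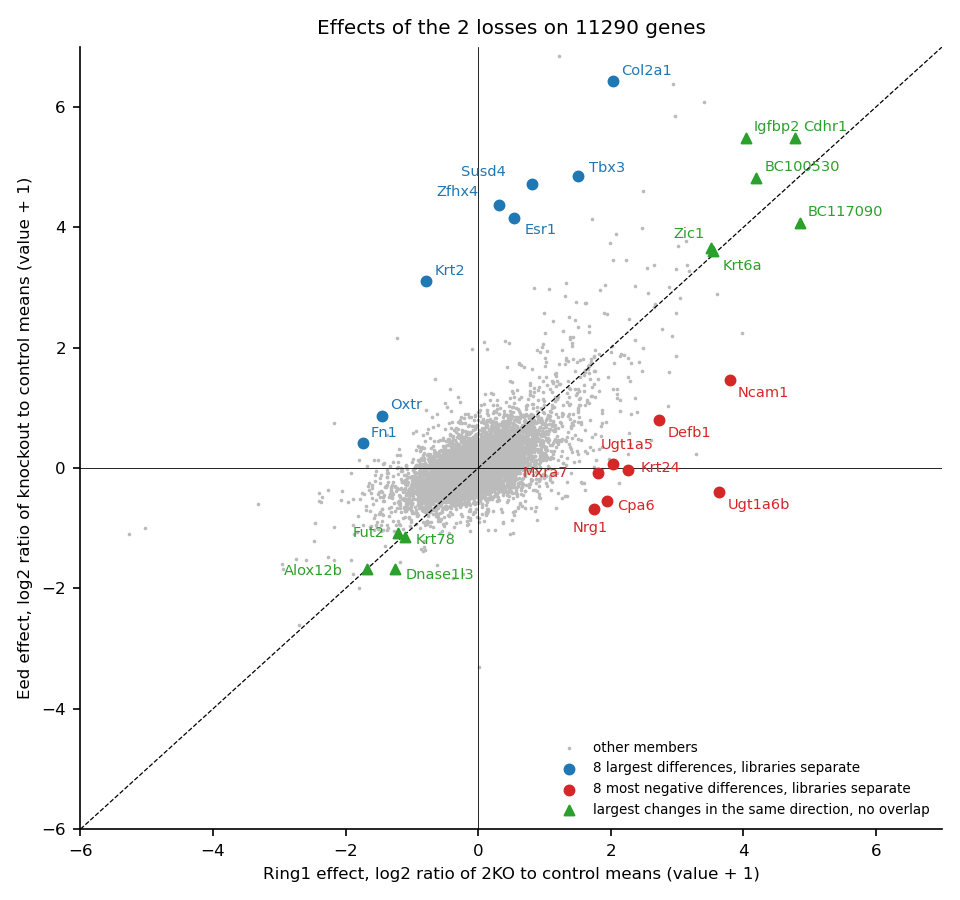
Each point is 1 of the 11290 members, with the Ring1 effect on the horizontal axis and the Eed effect on the vertical axis, both as log2 ratios of knockout to control means of normalised read count + 1; the dashed line marks equal effects. Blue and red points are the 8 largest and 8 most negative differences among genes whose libraries separate, and green triangles are the largest shared changes, which lie near the dashed line when all libraries are used.

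Differences between the losses were small for most genes. The difference lay between −1 and 1 for 97.1% of members, its median was 0.073, and 188 members (1.67%) had a difference of at least 1 and 137 (1.21%) of −1 or lower. The spread over genes was an SD of 0.45 for the Eed effect, 0.53 for the Ring1 effect and 0.42 for the difference. With Ring1a/b 2KO 1 as the only 2KO library, 242 members had a difference of at least 1 and 125 of −1 or lower; with 2KO 2 as the only one, these numbers were 728 and 275. The median standard error of a difference in limma was 0.39.

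No single difference passed the main test. limma, fitted to log2(value + 1) over all 10 libraries, called 0 of 11290 differences at a Benjamini-Hochberg adjusted p under 0.05 (0.0%), with 152 (1.35%) at an unadjusted p under 0.05 and a smallest adjusted p of 1.00. edgeR's quasi-likelihood test on the recovered reads also called 0, with 129 (1.14%) at an unadjusted p under 0.05. DESeq2 on the recovered reads called 1 gene (0.00886%), Ugt1a6b, with 163 (1.44%) at an unadjusted p under 0.05. limma called 1 Eed effect (0.00886%) and 0 Ring1 effects (0.0%), with 458 (4.06%) and 1061 (9.4%) at an unadjusted p under 0.05; DESeq2 on the same reads called 68 Eed effects and 33 Ring1 effects. Single libraries moved these numbers. With Ring1a/b 2KO 1 left out, limma called 4 differences and 185 Ring1 effects, and DESeq2 called 87 and 544; the 2KO arm is then 2KO 2 alone, which stood apart and is assumed to vary like the other groups, so those calls describe that library. DESeq2 called 18 Eed effects without Eed knockout 1 and 129 without Eed knockout 2. The genes below are therefore described by their size and by whether their libraries separate: a gene separates when all 9 Eed knockout to control ratios lie above, or below, all 4 Ring1a/b 2KO to control ratios.

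By that measure 334 members (2.96%) separated, 241 (2.13%) with the Eed effect above the Ring1 effect and 93 (0.824%) with it below. In most of the 241 the Ring1 effect was the larger in size (195 genes) and negative (232 genes), with a median of −0.46 against a median Eed effect of 0.11. In most of the 93 it was again the larger (79 genes) and positive (90 genes), with a median of 0.62 against −0.18. A difference of at least 1 in size was reached by 37 of the 241 and 31 of the 93. A knockout mean alone brought in 4 of the 241 and 21 of the 93, against 290 of all 11290 members. Of the separating genes, 11 and 1 lie on the X or Y chromosome, which holds 347 members (3.07%).

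Of the 8 largest separating differences, 6 came with Eed effects above 3 and smaller Ring1 effects. Col2a1, Zfhx4, Susd4 and Tbx3 among them had Eed control means under 50 and entered through a knockout mean. Susd4, a complement regulator (ENSMUSG00000038576.15, chromosome 1, 182763860 to 182896591), was read at 1.95, 10.1 and 2.02 in the Eed controls against 198, 75.7 and 176 in the knockouts. Its Ring1-table counts were 138 and 44.9 in the controls against 68.0 and 253 in the 2KO libraries. The Eed groups lay far apart and the Ring1 groups overlapped, and the difference was 3.92 (limma 4.18, SE 1.22, unadjusted p = 0.00556).

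Esr1, the oestrogen receptor alpha (ENSMUSG00000019768.16, chromosome 10, 4611593 to 5005614), had 180.2, 157 and 270.0 in the Eed controls against 5627, 790.3 and 4527 in the knockouts. Its Ring1-table counts were 373 and 291 in controls and 724 and 247 in 2KO libraries. Every Eed knockout exceeded every Eed control, 18-fold on the means, while the Ring1 groups overlapped (1.46-fold). The difference was 3.62, and 3.04 without Ring1a/b 2KO 2. Eed knockout 2, the lowest knockout for Esr1, was the knockout with high Y-linked counts. Eed control 3, the highest control, was the control with low ones. The part of sex in the Esr1 effect was not tested. Krt2, a keratin of the upper epidermal layers (ENSMUSG00000064201.8, chromosome 15, 101810689 to 101818169), had 42.9, 162 and 135 in the Eed controls against 536, 2059 and 354 in the knockouts. Its Ring1-table controls had 1363 and 377, and the 2KO libraries had 319.5 and 690.3. It was 8.68-fold higher in the Eed knockout and overlapped in the Ring1 table, where the ratio of means was 0.580.

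Zfhx4, a zinc-finger homeobox factor (ENSMUSG00000025255.18, chromosome 3, 5218526 to 5415857), had 28.2, 36.5 and 2.02 in the Eed controls against 805, 480.2 and 164 in the knockouts. Its Ring1-table counts were 111 and 93.1 in controls and 47.6 and 208 in 2KO libraries, which overlapped. Tbx3, a T-box transcription factor active in limb and mammary buds (ENSMUSG00000018604.18, chromosome 5, 119670669 to 119684724), had 2.92, 2.03 and 3.03 in the Eed controls against 192, 99.6 and 23.7 in the knockouts, and went from 26.0 and 24.9 to 79.1 and 69.9 in the Ring1 table. Both Tbx3 effects were positive without overlap, 4.86 and 1.51.

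Col2a1 encodes the chief fibrillar collagen of cartilage and lies on chromosome 15 at 97975602 to 98004695 (ENSMUSG00000022483.17). It had 1.95, 0 and 0 in the Eed controls against 82.7, 59.1 and 281 in the knockouts, a ratio of reads of 236 (95% counting interval 65.0 to 1954) from 2 control reads. In the Ring1 table it went from 25 and 29.9 to 104 and 127, 4.21-fold. Both groups of knockouts lay above their controls, and the difference of 4.39 depends on the value added before the logarithm. In the authors' deposited tables, Susd4, Esr1, Krt2, Zfhx4 and Tbx3 rose in the Eed comparison (adjusted p of 1.02e-08, 5.15e-11, 0.000317, 0.0135 and 5.31e-06) and passed no threshold in the Ring1 comparison (adjusted p of 0.879, 0.868, 0.936, 0.98 and 0.257). Col2a1 rose in both (adjusted p = 1.11e-06 and 0.0125). Among members the authors' deposited table called 79 genes (0.7%) in the Eed comparison, 71 higher (0.629%) and 8 lower (0.0709%). In the Ring1 comparison the authors' deposited table called 156 (1.38%), 117 higher (1.04%) and 39 lower (0.345%).

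**Figure D2:**
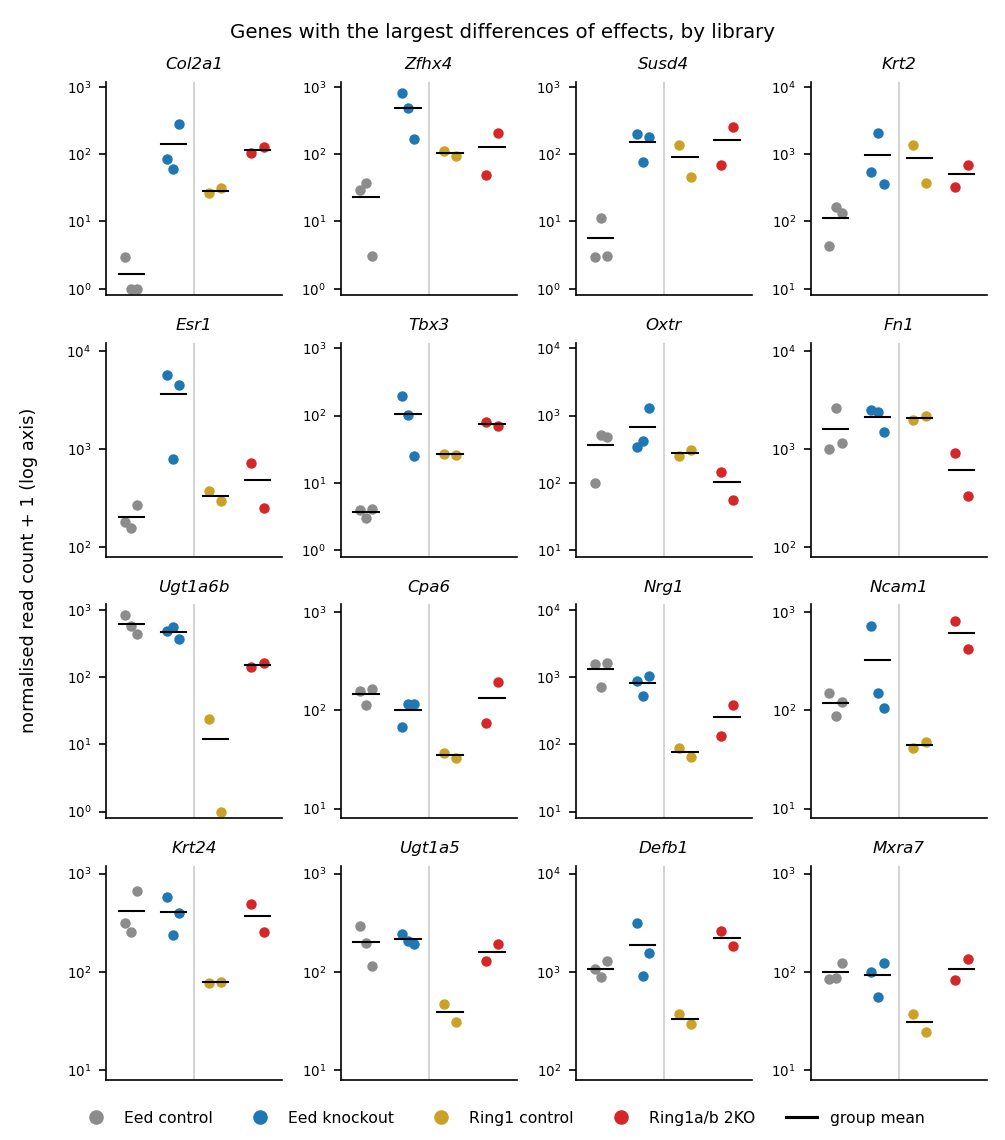
Normalised read count + 1 on a log axis for each library, with 1 panel a gene, points for libraries and a bar for the group mean; the grey line parts the Eed table (left) from the Ring1 table (right). The first 8 panels have the Eed effect above the Ring1 effect, with Susd4 from 1.95 to 10.1 in Eed controls and 75.7 to 198 in knockouts. For Fn1 and Oxtr among them the Ring1 effect was negative and the larger in size. The last 8 panels have the Ring1 effect above the Eed effect, with Krt24 at 76.1 and 78.1 in Ring1 controls and 256 and 488 in the 2KO.

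The controls of the 2 tables differed for these genes, and control levels are part of the difference itself. In CPM, recovered reads scaled to a common library total, a unit that sets the separately normalized tables side by side without a test, Susd4 averaged 0.125 in the Eed controls and 7.13 in the Ring1 controls; the knockout means were 4.31 and 14.1. Krt2 averaged 3.15 in the Eed controls and 67.8 in the Ring1 controls, against 28.7 and 43.9 in the knockouts. Tbx3 averaged 0.0766 and 2.04 in the controls, against 2.91 and 6.36. For each of the 8 genes with the largest differences, both Ring1 controls lay above all 3 Eed controls, and for 25 of the 37 separating genes with a difference of at least 1 the same held (67.6%, against 31.7% of all members). Of the 31 separating genes at −1 or lower, 10 had both Ring1 controls below all Eed controls (32.3%, against 15.1% of all members), and 0 had them above. Nrg1, on that side, averaged 37.7 in the Eed controls and 6.03 in the Ring1 controls, against 23.5 and 22.4 in the knockouts. Higher levels in the Ring1 controls thus went with a positive difference, Eed minus Ring1, and lower levels with a negative one. The part of control levels in the result was not tested.

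**Figure D3:**
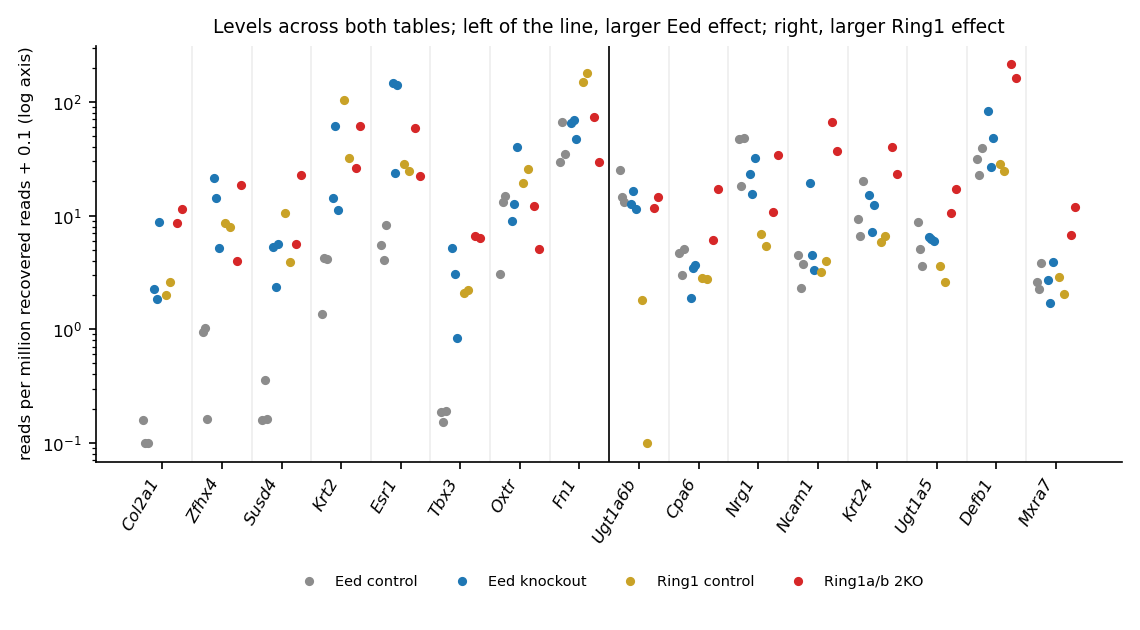
CPM (recovered reads scaled to a common library total) + 0.1 on a log axis for every library of both tables, for the 8 genes with the largest (left) and 8 with the most negative (right) separating difference; points are libraries. Left of the line the Ring1 controls sit above the Eed controls, as for Susd4 with means of 7.13 and 0.125, and the knockout means, 4.31 and 14.1, are closer to each other than that.

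Promoters of 4 genes show how unlike these genes are in CpG content, the feature that attracts several Polycomb forms: Susd4 and Krt2 with the larger Eed effect, Krt24 with the larger Ring1 effect and Zic1 with close effects. Each is 300 bases, 250 before to 50 after a start site, from RefSeq on GRCm38.p6, on the gene's strand, with every CG in capitals. The windows hold 50 CG in Susd4 (chr1:182763966-182764265, plus strand), 6 in Krt2 (chr15:101818120-101818419, minus strand), 3 in Krt24 (chr11:99285213-99285512, minus strand) and 31 in Zic1 (chr9:91365719-91366018, minus strand).
Susd4: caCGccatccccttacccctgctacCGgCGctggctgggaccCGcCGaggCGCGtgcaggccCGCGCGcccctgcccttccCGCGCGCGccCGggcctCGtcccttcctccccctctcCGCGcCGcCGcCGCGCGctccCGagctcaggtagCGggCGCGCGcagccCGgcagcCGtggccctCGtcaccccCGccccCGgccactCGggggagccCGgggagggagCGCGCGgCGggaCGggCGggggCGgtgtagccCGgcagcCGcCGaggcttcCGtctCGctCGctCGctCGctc
Krt2: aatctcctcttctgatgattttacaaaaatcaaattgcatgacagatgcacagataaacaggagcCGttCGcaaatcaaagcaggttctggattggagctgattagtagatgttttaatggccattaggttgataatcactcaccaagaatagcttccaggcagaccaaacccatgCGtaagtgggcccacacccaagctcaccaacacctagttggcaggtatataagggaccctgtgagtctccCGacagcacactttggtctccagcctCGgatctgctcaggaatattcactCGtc
Krt24: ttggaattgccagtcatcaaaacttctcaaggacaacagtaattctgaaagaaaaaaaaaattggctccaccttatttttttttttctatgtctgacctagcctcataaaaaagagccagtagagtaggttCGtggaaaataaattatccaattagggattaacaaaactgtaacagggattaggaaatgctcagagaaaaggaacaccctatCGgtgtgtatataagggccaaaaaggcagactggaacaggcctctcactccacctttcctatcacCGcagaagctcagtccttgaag
Zic1: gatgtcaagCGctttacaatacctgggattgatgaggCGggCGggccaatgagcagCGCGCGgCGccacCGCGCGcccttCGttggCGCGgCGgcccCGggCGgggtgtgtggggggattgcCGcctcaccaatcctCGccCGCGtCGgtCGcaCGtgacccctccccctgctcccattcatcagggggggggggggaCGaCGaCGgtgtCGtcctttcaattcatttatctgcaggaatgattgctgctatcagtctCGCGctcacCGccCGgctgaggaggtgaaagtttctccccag
The 32851 promoters of this length in the RefSeq table had a median of 7 CG and quartiles of 3 and 20, and 94.6% held at least 1. Susd4 and Zic1 lay above the upper quartile, and Krt2 and Krt24 below the median, so both kinds occurred on the Eed side. The 8793 members matched to a promoter, predicted genes aside, held more, with a median of 21 CG and quartiles of 14 and 29. The start site used for Susd4 lies 356 bases from its GENCODE start. A comparison of promoter CG between groups of members was void, since, predicted genes aside, only 25 of 35 separating genes with a difference of at least 1 and 17 of 30 at −1 or lower matched a promoter.

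On the other side, the 8 most negative separating differences came with Ring1 effects of 1.74 (Nrg1) to 3.80 (Ncam1) and lower Eed effects. Ncam1, Ugt1a5, Ugt1a6b, Cpa6 and Mxra7 among them had Ring1 control means under 50 and entered through the 2KO. Krt24, a type I keratin (ENSMUSG00000020913.3, chromosome 11, 99279959 to 99285262), had 76.1 and 78.1 in the Ring1 controls against 488 and 256 in the 2KO. In the Eed table it had 314, 256 and 665 in controls and 574, 239 and 397 in knockouts. The 2KO libraries stood above both Ring1 controls, 4.83-fold, and the Eed groups overlapped; the difference was −2.29, and −2.68 without Ring1a/b 2KO 2.

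Defb1, an antimicrobial beta-defensin (ENSMUSG00000044748.8, chromosome 8, 21776599 to 21795185), went from 373 and 291 in the Ring1 controls to 2617 and 1813 in the 2KO, and had 1058, 889.8 and 1284 in the Eed controls against 3169, 903 and 1538 in the knockouts. It was 6.67-fold higher in the 2KO without overlap, and in the Eed table the knockouts ranged from among the controls to above them. Ncam1, a neural cell adhesion molecule (ENSMUSG00000039542.16, chromosome 9, 49502136 to 49798925), went from 40.1 and 46.5 to 813 and 416 in the Ring1 table, 14.2-fold. Its Eed counts were 149, 86.2 and 120.3 in controls and 730.2, 149 and 104 in knockouts, so the Eed mean rested on knockout 1, and the difference of −2.34 was −3.70 without it. In the authors' deposited table for the Ring1 comparison Defb1, Ncam1 and Krt24 rose (adjusted p of 3.76e-15, 3.91e-15 and 9.07e-05), and in the Eed table their adjusted p were 0.849, 0.552 and 1.00.

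Nrg1, a ligand of the ERBB3 and ERBB4 receptors (ENSMUSG00000062991.7, chromosome 8, 31814551 to 32884029), had 88.6 and 63.1 in the Ring1 controls against 130.4 and 382 in the 2KO, while the Eed table had 1576, 717 and 1589.8 in the Eed controls against 882, 519.6 and 1028 in the knockouts. The difference was −2.42, and −1.45 with 2KO 1 as the only 2KO library. Cpa6, a secreted carboxypeptidase (ENSMUSG00000042501.12, chromosome 1, 10324720 to 10719945), showed a like pattern, with 35.9 and 31.6 against 72.9 and 192 in the Ring1 table and a difference of −2.49, or −1.64 without 2KO 2. Mxra7 (ENSMUSG00000020814.13, chromosome 11, 116803062 to 116828046) had 36.5 and 23.3 in Ring1 controls and 81.0 and 133 in the 2KO, 3.58-fold, and 0.942-fold in the Eed table. None of these 3 passed the threshold of the authors' deposited tables.

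A pair of glucuronosyltransferase genes, Ugt1a6b (ENSMUSG00000090145.7, chromosome 1, 88103252 to 88219003) and Ugt1a5 (ENSMUSG00000089943.1, chromosome 1, 88166012 to 88218997), conjugate small molecules for excretion and share their last exons, so reads can be split between them and their counts are uncertain. Ugt1a6b had 22.4 and 0 in the Ring1 controls against 140.3 and 161 in the 2KO, while the Eed table had 841, 575 and 433 in the Eed controls against 479.6, 558 and 361 in the knockouts. It had the most negative separating difference, −4.04, and was the only difference called by DESeq2 on recovered reads (adjusted p = 0.00266); limma gave −5.34 (SE 1.42, adjusted p = 1.00). Ugt1a5 had 45.8 and 29.9 in the Ring1 controls against 127 and 190.1 in the 2KO, and 1.05-fold in the Eed table. In the authors' deposited table for the Ring1 comparison Ugt1a5 rose (adjusted p = 0.0106), and Ugt1a6b was not called (adjusted p = 0.646). In CPM, Ugt1a6b averaged 0.855 in the Ring1 controls against 12.9 in the 2KO, close to the 17.5 and 13.4 of the Eed groups.

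Many of the separating genes had a negative Ring1 effect and an Eed effect near 0. Fn1, the matrix protein fibronectin (ENSMUSG00000026193.15, chromosome 1, 71585520 to 71653200), had 1971 and 2142 in the Ring1 controls against 899 and 329.9 in the 2KO, and 993, 2604 and 1149.9 in the Eed controls against 2477, 2358 and 1497 in the knockouts. Slc4a8, a sodium-dependent bicarbonate transporter, had 1568 and 1682 against 714 and 303 in the Ring1 table, and 2759, 2453 and 2066 against 2299.8, 3235 and 1949 in the Eed table. The 2KO libraries lay below both controls for each, and the Eed groups overlapped. Fn1 and Slc4a8 fell in the authors' deposited table for the Ring1 comparison (adjusted p = 0.00753 and 0.0051), and the laminin gene Lama1, named after its values were seen, fell there too (779.8 and 999 against 367 and 235, adjusted p = 0.00126). Differences without Ring1a/b 2KO 2 were 1.61 for Fn1 and 1.22 for Slc4a8.

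Nrarp, a Notch target that limits Notch signalling, had 132 and 105 in the Ring1 controls against 42.0 and 48.4 in the 2KO, a ratio of 0.382, and 0.981 in the Eed table. Rcc1l, a mitochondrial guanine nucleotide exchange factor-like protein, had 84.4 and 129.6 against 34.6 and 55.6, and 365, 389.6 and 416 against 462, 465 and 439 in the Eed table. For Rcc1l the Eed knockouts were all above, and the 2KO all below, their controls. The 2KO means of Nrarp and Rcc1l, 45.2 and 45.1, lay under 50, so both genes entered through their Ring1 control means. Oxtr, the oxytocin receptor, had a ratio of 0.365 in the Ring1 table with both 2KO libraries below the controls, and 1.83 in the Eed table with overlap; the difference of 2.32 was 1.49 without Eed knockout 3. Among the named genes with a positive difference, Slc4a8 and Nrarp had the smallest limma p, 0.00226 and 0.00382 before adjustment. Their Eed effects were 0.040 and −0.027, against Ring1 effects of −1.67 and −1.37.

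Within 1 table, knockout and control values did not overlap for 524 members above (4.64%) and 478 below (4.23%) the Eed controls, and for 2182 above (19.3%) and 2877 below (25.5%) the Ring1 controls, where only 2 libraries face 2. The genes with the largest effects of 1 direction in both losses follow, and the closeness of their effects moved with single libraries. Krt6a, a keratin of wounded and proliferating epidermis with near-identical copies that make its count uncertain, had 1634, 808 and 1342 in the Eed controls against 34323, 4531 and 7209.9 in the knockouts, and 147 and 389 against 1788 and 4465 in the Ring1 table. The ratios of means were 12.2 and 11.7, and the difference was 0.066, but 0.87 without 2KO 2 and −1.32 without Eed knockout 1. Zic1, a neural zinc-finger factor, had 19.5, 10.1 and 14.2 against 398, 141 and 48.9, and 7.29 and 44.9 against 237 and 380.1. Its ratios were 13.4 and 11.8, all knockouts above all controls in both tables, and its difference of 0.14 was −0.89 without Eed knockout 1.

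Igfbp2, which binds insulin-like growth factors, was 46.7-fold higher in the Eed knockout and 16.8-fold in the 2KO, and its limma difference of 1.70 had an SE of 1.57. The difference of its effects, 1.45, was 2.93 without 2KO 2 and −0.080 without Eed knockout 1. Cdhr1, a photoreceptor cadherin, was 52.1-fold and 32.7-fold higher; its Eed mean rested on knockout 1 (935, against 23.9 and 15 in the others), and the difference of 0.72 was −3.28 without it. The stefin A genes BC100530 and BC117090, protease inhibitors with near-identical relatives whose counts are uncertain, were 28.4-fold and 19.5-fold higher in the Eed knockout and 18.3-fold and 30.7-fold in the 2KO. Without Ring1a/b 2KO 2 the differences of the stefin genes were 2.29 and 2.52, against 0.63 and −0.77 with it, and without Eed knockout 1 they were −1.70 and −2.85. Shared lower genes were Alox12b, a lipoxygenase of the skin barrier (ratios 0.311 and 0.306), the keratin Krt78 (0.450 and 0.464), the nuclease gene Dnase1l3 (0.312 and 0.419) and the fucosyltransferase gene Fut2 (0.472 and 0.431). For 3 of these the Ring1 effect rested on 2KO 2: without it the effect of Krt78 went from −1.10 to −0.19, that of Dnase1l3 from −1.25 to −0.60 and that of Fut2 from −1.21 to −0.55, while that of Alox12b went from −1.67 to −1.44. In all, 272 members (2.41%) were higher and 251 (2.22%) lower in both knockouts with no overlap in either table. Zic1, Igfbp2, Cdhr1 and BC117090 had control means under 50 in both tables, so a rise in both was needed for their entry.

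The authors' deposited tables called 38 members in both comparisons, 48.1% of the Eed calls and 24.4% of the Ring1 calls, and all 38 had the same direction in both. Their median difference was 0.34, with 28 of 38 above 0, where 59.5% of all members were. Sim2, Pitx1, Zic1, Igfbp2, Tbx15 and Hmga2, among others of the 38, had control means under 50 in both tables. Entry required a rise of these genes in both, so their shared direction was fixed beforehand. Gria3, a glutamate receptor subunit, had the smallest adjusted p in both (8.64e-18 and 1.57e-15), with 11.7, 7.10 and 25.3 against 782, 285 and 2122 in the Eed table and 79.7 and 83.1 against 639 and 1112 in the Ring1 table. Fbln2, a matrix fibulin, and Hmga2, an embryonic chromatin protein, had differences of 0.14 and 0.05, or 0.58 and 0.75 without 2KO 2 and −0.40 and −0.87 without Eed knockout 1. Kctd12, a GABA-B receptor partner protein, fell in both of the authors' deposited tables, with effects of −1.06 and −1.82 (−1.17 without 2KO 2). Gria3, Fbln2, Hmga2 and Kctd12 were named after their values were seen. Gria3 entered through its Eed knockout mean.

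Opposite effects were rare. With no overlap in either table, 21 members (0.186%) were higher in the Eed knockout and lower in the 2KO, and 16 (0.142%) the reverse. The former included Nat2, an arylamine acetyltransferase (effects 0.50 and −0.73), Stoml1, a stomatin-like protein (0.68 and −0.33, or −0.19 without 2KO 2), Ing1, a chromatin reader of the ING family (0.52 and −0.33), and Vipas39, a vesicle-trafficking protein (0.40 and −0.38). Six4, a homeobox factor, had 205, 104 and 139.6 in the Eed controls against 69.5, 81.9 and 93.9 in the knockouts, and 37.5 and 44.9 against 84.7 and 69.9 in the Ring1 table. Ptprc, the leukocyte antigen CD45, had 132, 118 and 173 against 73.1, 75.7 and 108, and 31.8 and 39.9 against 64.9 and 66.3. Both were lower in every Eed knockout and higher in every 2KO library. Mmp19, a matrix metalloproteinase, and Pot1b, a telomere protein, showed the same pattern with effects of −0.50 and 0.93, and −0.36 and 0.34. None of these 8 passed the threshold of either deposited table.

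**Figure D4:**
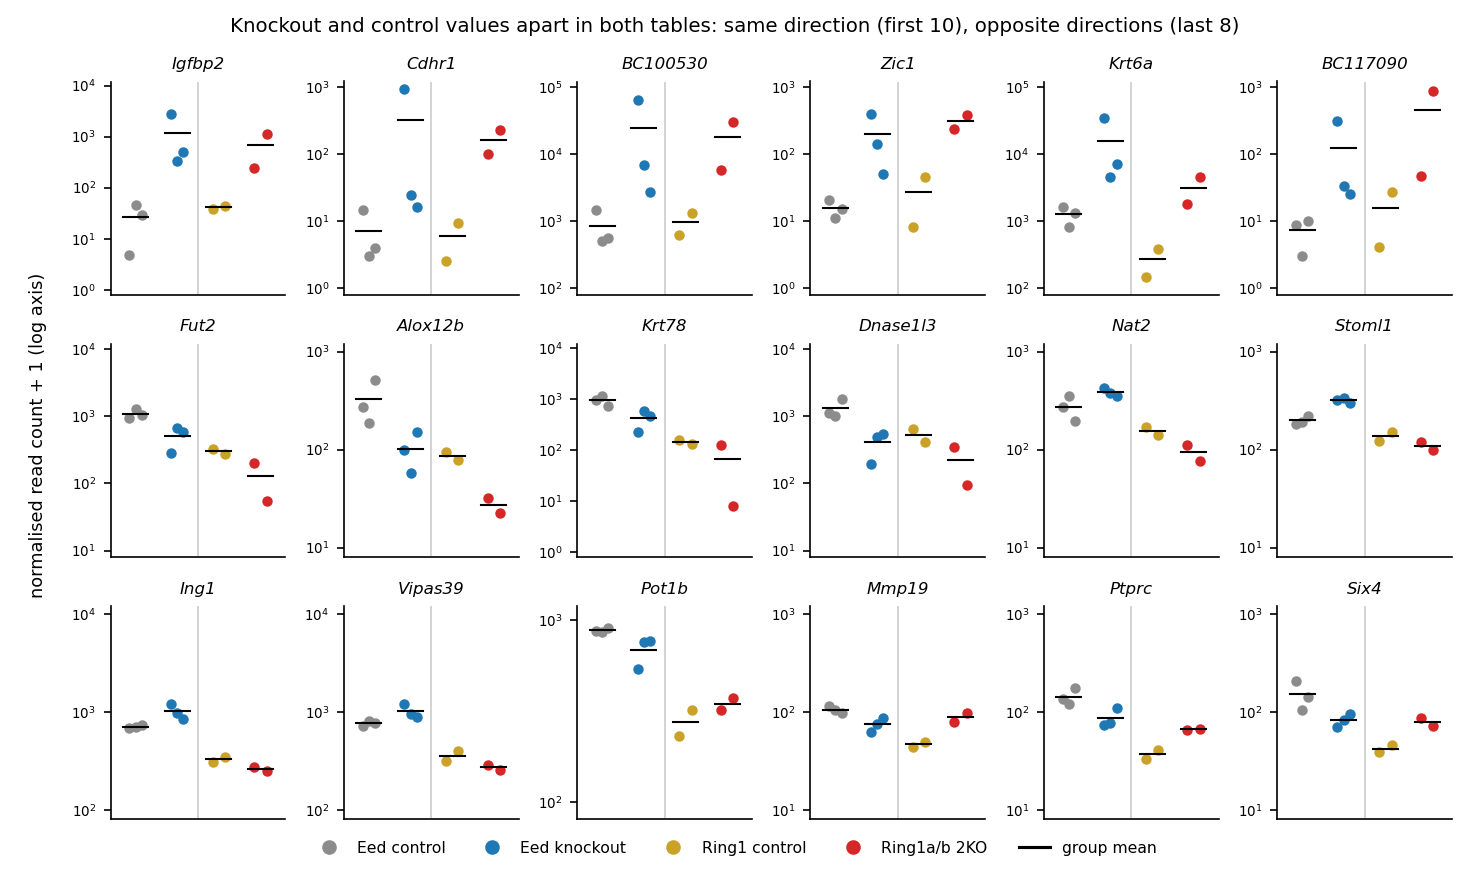
Normalised read count + 1 on a log axis for each library, with a bar for the group mean and a grey line between the Eed table (left) and the Ring1 table (right). In the first 10 panels the knockouts lie on the same side of their controls in both tables, as for Krt6a at 12.2-fold and 11.7-fold, and in the last 8 they lie on opposite sides, as for Six4 with effects of −0.86 and 0.89.

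Functions were described by lists, each given as its median effects beside those of all members, which were 0.004 for Eed, −0.047 for Ring1 and 0.073 for the difference, which was above 0 in 59.5% of members. The limma count of called differences was 0 in every list. The 12 PRC2 subunits had medians of −0.0002 and −0.055. Among 32 PRC1 subunits the median effects were −0.019 and −0.14, with the difference above 0 in 25 (21 without 2KO 2), and 3 separated, where 2.96% of all members did. Bmi1, a PCGF subunit of canonical PRC1, had 331, 343 and 403 in the Eed controls against 942, 588 and 707 in the knockouts, and 549 and 366 against 486 and 452 in the Ring1 table. It rose in the authors' deposited Eed table (adjusted p = 0.0215), while the Ring1 groups overlapped. Yaf2, a partner of variant PRC1, had effects of 0.63 and −0.25 (0.002 without 2KO 2), and Scml2, an associated protein encoded on the X chromosome, −0.067 and −0.83.

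Developmental transcription factors other than Hox genes had medians of 0.29 and 0.50 over 39 members of a list of 132, and 13 of the 39 entered through a knockout mean. With Eed loss 6 rose, and with Ring1a/b loss 9, in the authors' deposited tables, which called 0.629% and 1.04% of all members higher. Among the genes called there, Tbx3, Pitx1, Tbx15, Zic1 and Sim2 entered through a knockout mean. A rise was needed for their entry, so these counts cannot be weighed against the shares of all members. Tbx15, a T-box factor, and Eya2, a transcriptional coactivator, had differences of 0.11 and 0.034, whereas Tbx3, Pitx1, a homeobox factor of the hindlimb, and Sim2, a bHLH-PAS factor, had 3.34, 2.89 and 3.43. Without Eed knockout 1 these 5 differences were −1.65, −2.17, 2.58, 0.60 and 1.82. Pitx1 had 4.87, 1.01 and 0 against 442, 58.1 and 10.3 in the Eed table and 12.0 and 15 against 91.5 and 133 in the Ring1 table, and its library ratios overlapped between the losses; Pitx1, Sim2, Tbx15 and Eya2 were named after their values were seen. The 18 Hox genes had medians of 0.045 and −0.034, and Hoxa5 separated, at 517 and 513 against 369.6 and 292 in the Ring1 table and 0.960-fold in the Eed table.

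Signals that act on melanocytes, the pigment cells of skin, went different ways. The 12 members had medians of 0.33 and 0.35 and a median difference of 0.52, or 0.31 without Ring1a/b 2KO 2, where the Ring1 median was 0.099. Kitl, the ligand of the melanocyte receptor Kit, had 491, 337 and 682 in the Eed controls against 1260.2, 732 and 831 in the knockouts, 1.87-fold, and 259.9 and 161 against 409 and 1676 in the Ring1 table, 4.95-fold. All knockouts lay above their controls, but the difference of −1.40 was −0.053 without Ring1a/b 2KO 2. Edn1, endothelin 1, had effects of 0.63 and 0.29 with overlap in both tables. Wnt3a, a Wnt ligand, separated, at 201 and 191 against 101 and 142 in the Ring1 table and 1.29-fold in the Eed table, and Nrg1 separated in the other direction. Col2a1 is on this list but is a cartilage collagen. Of the pigment enzymes, Dct had 25.5 and 36.6 against 163 and 50.2 in the Ring1 table and 0.997-fold in the Eed table; Tyr, Pomc and Cdkn2a were below the limit of 50 in at least 1 table. In bulk samples such as these, fewer cells of a type and less RNA per cell cannot be told apart.

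Genes of the attachment to the basement membrane leaned lower in the 2KO. The 24 basal keratinocyte and hemidesmosome genes had medians of −0.089 and −0.33, with the difference above 0 in 20, and a median difference of 0.27 (0.15 without Ring1a/b 2KO 2). Itga3, the integrin α3 chain, had 2353 and 2114 in the Ring1 controls against 1532 and 1212 in the 2KO, and Lama5, a laminin chain, had 2257 and 1987 against 1638 and 1673. Both separated, with Eed ratios of 0.869 and 1.14. Suprabasal and cornified envelope genes had medians of −0.54 and −0.52 over 32 members, but without 2KO 2 the Ring1 median was −0.26 and the median difference went from 0.002 to −0.34. Loricrin (Lor) and filaggrin 2 (Flg2), proteins of the cornified layer, had effects of −1.53 and −2.17, and −1.59 and −2.95, and fell in the authors' deposited Ring1 table (adjusted p = 0.00592 and 1.25e-06). Krt1, an early suprabasal keratin, rose there (adjusted p = 0.00247), with effects of −0.46 and 1.34. Junction genes (23, medians −0.23 and −0.25) and lipid barrier genes (18, −0.32 and −0.22) lay close between the losses, with Ring1 medians of −0.096 and −0.15 without 2KO 2. Stress and wound genes had medians of 0.59 and 1.19 and a median difference of 0.17 over 14 members; without Eed knockout 1 the Eed median was 0.0005 and the difference −0.61, and without 2KO 2 the difference was 0.58. S100a9, an alarmin, had 212 in Ring1a/b 2KO 2 against 4.99 to 17.3 in the other Ring1-table libraries.

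Signalling lists leaned lower in the 2KO than in the Eed knockout. The 16 Notch pathway genes had medians of −0.10 and −0.52 and a median difference of 0.36, or 0.23 without Ring1a/b 2KO 2, with Nrarp and Maml2, a coactivator of Notch, separating. The 31 BMP and TGF-beta genes had 0.015 and −0.19, a difference of 0.32 (0.17 without 2KO 2), with Smad3, a signal transducer, and Tgfbr2, a receptor, separating. The 31 Wnt genes had 0.032 and −0.29, a difference of 0.29 (0.24 without it); Dkk3, a secreted Wnt modulator, separated in the other direction, at 304 and 296 against 690.4 and 533 in the Ring1 table. The 19 steroid and nuclear receptor genes had −0.12 and −0.54, with the difference above 0 in 17, and of these Esr1 separated; without 2KO 2 the Ring1 median was −0.23, the median difference 0.16 (from 0.38) and 12 were above 0. Hedgehog genes had 0.19 and 0.052 (0.12 without 2KO 2) over 12 members. Matrix glycoproteins and proteoglycans had 0.36 and −0.032 over 26 members, a difference of 0.31 (0.19 without 2KO 2 and 0.061 without Eed knockout 1), with Fn1, Sdc2, a heparan sulfate proteoglycan, and Efemp1, a fibulin, separating. These 3 were lower in the 2KO, but other matrix genes rose there. The authors' deposited Ring1 table called 7 of the 26 higher and 1, Fn1, lower, against 1.04% and 0.345% of all members. Of the 26, 5 entered through a knockout mean.

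**Figure D5:**
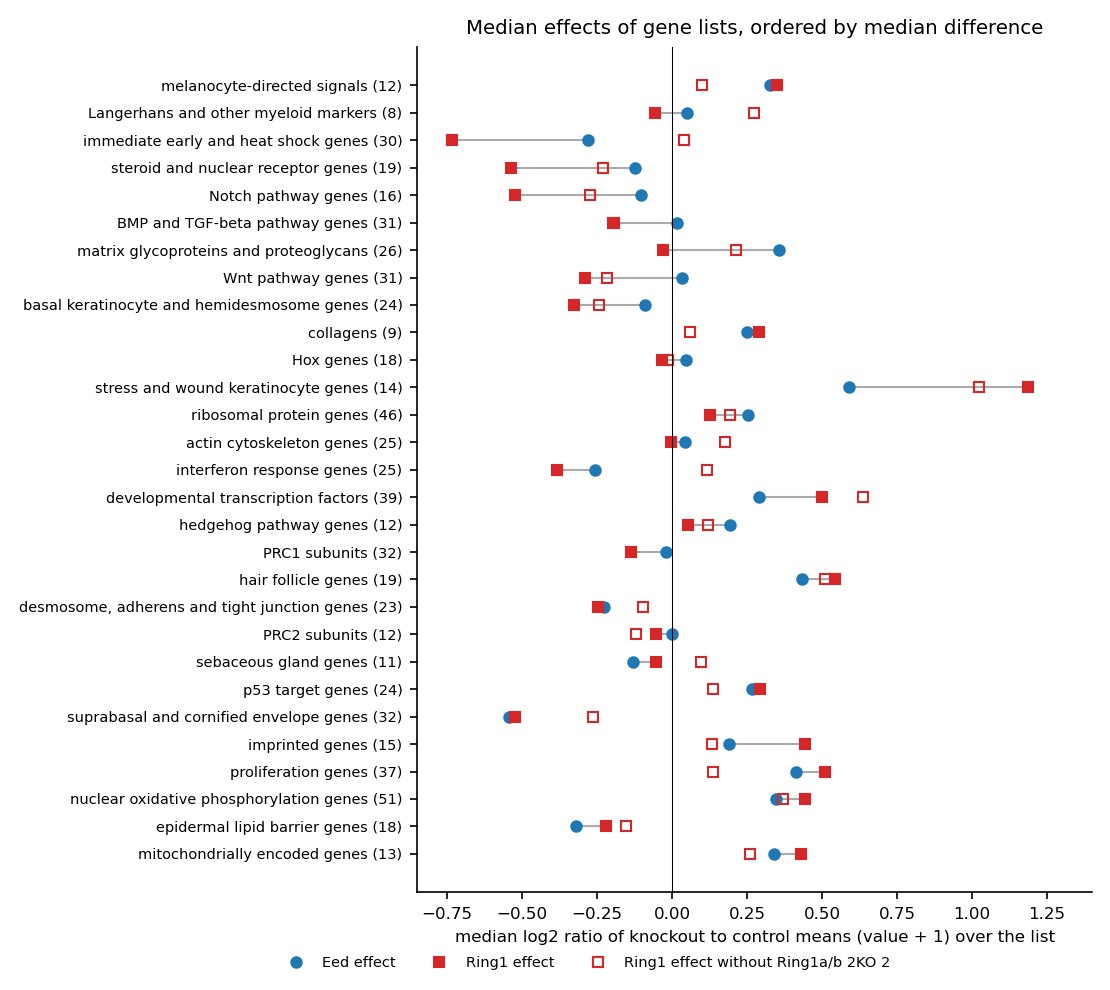
Median log2 ratio of knockout to control means over each of the 29 lists with at least 8 members, with the number of members in parentheses: blue circles for the Eed effect, red squares for the Ring1 effect and open squares for the Ring1 effect without Ring1a/b 2KO 2. Notch genes sit at −0.10 and −0.52 and suprabasal genes at −0.54 and −0.52 with the open square at −0.26, and for immediate early and heat shock genes the open square (0.041) lies on the other side of 0 from the filled one (−0.73).

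Some list differences rested on Ring1a/b 2KO 2. Immediate early and heat shock genes, known as fast responders to stimulation, had medians of −0.28 and −0.73 over 30 members and a difference of 0.42, above 0 in 26; without 2KO 2 the Ring1 median was 0.041, the difference −0.21, and 6 were above 0. Interferon response genes (25) had a difference of 0.11, and −0.35 without it. Proliferation genes (37) had medians of 0.41 and 0.51 and a difference of −0.08, and 0.21 without it. Eed knockout 1 bore on the last list as well: without it the median Eed effect of proliferation genes was 0.0082. Genes of oxidative phosphorylation had medians of 0.35 and 0.44 over 51 nuclear members and 0.34 and 0.43 (0.26 without 2KO 2) over 13 mitochondrial ones. Without Eed knockout 1 the nuclear members had a median Eed effect of −0.067. Ribosomal protein genes (46) had 0.25 and 0.13, and −0.18 for Eed without that library, and p53 targets (24) had 0.27 and 0.29 (0.14 without 2KO 2).

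Markers of other cells were sparse among members. Of 20 Langerhans and other myeloid markers 8 were members, with medians of 0.048 and −0.056 (0.27 without 2KO 2). The summed count of all 20 was 5587 to 9805 in Eed controls, 6869 to 11481 in Eed knockouts, 2371 to 2881 in Ring1 controls and 2173 to 3356 in the 2KO. This list includes Epcam, a sorted marker of the keratinocytes, so the sum does not measure myeloid RNA. Epcam alone had counts of 3597 to 5886 across the Eed table and 938 to 1845 across the Ring1 table. Cd207 (langerin) was under the limit, at 1.79 to 9.38 in the Ring1 table. T cell, fibroblast and endothelial markers had 3, 2 and 2 members, Schwann cell and neuronal markers 4, and muscle, adipocyte and red blood cell genes 0. No joined marker gene was at 0 in every library, and the part of these cells in the differences, that of Ptprc included, was not tested.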

How the data were processed

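RNA-seq of sorted interfollicular epidermis was used in 10 libraries of 4 groups. Per the labels' protocols, 10 ng of total RNA was amplified and sequenced paired-end. Per the submitters' processing notes, kallisto 0.42.5, DESeq2 3.11 and mm10 were used; tool settings and strand handling were not given in the sources used here. The authors deposited 1 table for each loss, restricted to protein-coding genes, with a signal value per library: gene counts divided by a size factor, separately in each table. The deposited tables also give the authors' log2 fold change, its standard error and test statistic (a score), and the unadjusted and adjusted p-value.

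All of the low values (100% at a tolerance of 1e-06) were whole multiples of 1 step per library, so reads were recovered from the deposited values. The tables were joined on EnsemblID and genes whose mean reached 50 in each were kept. limma 3.58.1 (trend, robust) was fitted to log2(value + 1) in 1 model of 4 group means with 6 residual degrees of freedom, and p-values were adjusted over the 11290 members by Benjamini-Hochberg; fold changes on this scale understate changes of low genes. edgeR 4.0.16 (quasi-likelihood) and DESeq2 1.42.0 were run on recovered reads, in R 4.3.3. The fits were tested on simulated data.

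Named genes were the targeted and pigment genes, the 8 largest separating differences in each direction, the 5 smallest p in limma and in DESeq2 in each direction, the 6 largest shared increases and 4 shared decreases, the 4 largest opposite effects in each direction, up to 3 separating members of each of 40 gene lists, and the genes at the limit of 50. Prdm8, named by this rule from DESeq2, had effects of 2.17 and −1.22, and the p53 target Tigar 0.28 and −0.36. Genes given with an adjusted p of the authors' tables beyond this rule were named after their values were seen. The members and lists were chosen with earlier results of these data known. Positions are from GENCODE M21, matched without version for 11288 members; counts are of whole genes.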

Additional observations from a re-analysis of the deposited data

Results flagged for a closer look

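Ugt1a6b, a glucuronosyltransferase gene, was the only member whose Eed and Ring1 effects differed by a test of the difference itself, in DESeq2 on recovered reads (adjusted p = 0.00266, difference of −3.99 on the log2 scale). Its normalised read count was 22.4 and 0 in the Ring1 controls against 140.3 and 161 in the 2KO, and 433 to 841 in the Eed controls and 361 to 558 in the knockouts. Both 2KO libraries lay above both Ring1 controls, and the Eed groups overlapped. The authors' deposited table for the Ring1 comparison did not call this rise (adjusted p = 0.646). limma gave an adjusted p of 1.00 for the same difference, and 0.00141 without Ring1 control 1. In DESeq2 the call was lost when Eed control 1, Ring1 control 1 or Ring1a/b 2KO 2 was left out. Ugt1a6b shares exons with the other Ugt1a genes, so its count is uncertain.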

How the results depend on the processing

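Called differences numbered 0 in limma under every alternative pseudocount, filter, scaling, weight, threshold and the replicate block, and 0 in edgeR; leaving out 1 library gave 0 to 4, and DESeq2 on recovered reads gave 1. In DESeq2 with 1 library left out, an alternative chosen after seeing the data, called differences were 0 to 87: 3 without Eed control 2, Eed knockout 1 or Eed knockout 2, 1 without Eed control 3, Eed knockout 3 or Ring1 control 2, 87 without Ring1a/b 2KO 1, and 0 without the others. Called Eed effects, 1 in limma, numbered 10 with a mean of at least 5, 11 with no filter, 0 with a mean of at least 200, with a control mean of at least 50, with quantile normalization, in edgeR or at a threshold of 0.01, 2 at a threshold of 0.1 and 0 to 7 without 1 library. DESeq2 called 68, and 33, 97 and 63 without Eed control 1, 2 or 3, 18, 129 and 89 without Eed knockout 1, 2 or 3, 57 and 60 without Ring1 control 1 or 2, and 77 and 75 without Ring1a/b 2KO 1 or 2. Called Ring1 effects, 0 in limma, numbered 0 to 185 without 1 library and 33 in DESeq2, where leaving out the same libraries in that order gave 19, 84, 36, 104, 53, 45, 7, 11, 544 and 12. With the replicate block, limma called 0 differences, 3 Eed effects and 0 Ring1 effects. Same-numbered libraries had correlations of −0.24, 0.17 and 0.31 in the Eed table and 0.23 in the Ring1 table. With 2 libraries in a Ring1 group, their deviations from the group mean mirror each other, so the Ring1 value says little. The deposited column names give same-numbered Eed control and knockout libraries the same letter. Whether the numbers pair the samples is not settled by these correlations.

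Members separating with Eed above Ring1, 241, numbered 370 with no filter, 147 with libraries centred on their medians and 366 to 1606 without 1 library, where fewer ratios must separate. Those with Eed below Ring1, 93, numbered 239 with a mean of at least 5, 363 with no filter, 41 with a mean of at least 200, 142 centred, 190 with quantile normalization and 160 to 598 without 1 library. The correlation of the effects, 0.64, was 0.52 with a mean of at least 5, 0.40 with no filter and 0.45 to 0.66 without 1 library, lowest without Eed knockout 1. The median difference, 0.073, was 0.033 with no filter, 0.010 centred, −0.0044 with quantile normalization, 0.0010 in edgeR, 0.0090 in DESeq2 and 0.031 to 0.113 without 1 library. The cause of these changes was not tested. Where a Ring1 group is left with 1 library, that library is assumed to vary like the other groups. With 2 libraries in each Ring1 group, of which the second of each held 7162907 and 6237389 reads, the median standard error of 0.39 limits which differences could be detected.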

Other observations

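Hair follicle genes had medians of 0.43 and 0.54 over 19 members (0.25 for Eed without Eed knockout 1), against 0.004 and −0.047 over all members. Of the 19, 6 rose in the authors' deposited table for Ring1a/b loss and 0 in that for Eed loss. Over all members those tables called 1.04% and 0.629% higher. The Eed effects of these 6, named after their values were seen, were also above 0. Eed and Ring1 effects were 1.69 and 1.68 for Lhx2, 2.48 and 2.28 for Gli1, and 1.10 and 1.35 for Runx1. They were 1.05 and 1.62 for Lgr5, 0.44 and 1.05 for Trps1, and 1.03 and 2.87 for Cd34. The median difference of the list was 0.069, against 0.073 over all members. Cd34, a surface marker of the follicle bulge, had 19.8 and 15 in the Ring1 controls against 70.5 and 195 in the 2KO, and 37.0, 31.5 and 172 in the Eed controls against 276, 59.1 and 160.2 in the knockouts; its Eed groups overlapped. Imprinted genes had medians of 0.19 and 0.44 over 15 members, or 0.13 for the latter without Ring1a/b 2KO 2. Grb10, an imprinted adaptor that limits insulin signalling, rose in the authors' deposited Ring1 table (adjusted p = 0.00136), with 102 and 68.1 against 252 and 450.0, and had 38.0, 118 and 67.8 against 129, 46.7 and 68.6 in the Eed table. Rspo3, a secreted enhancer of Wnt signalling, fell in the authors' deposited Ring1 table (adjusted p = 0.000858), with 262 and 316 against 79.1 and 30.5, and its Eed effect was −0.56 with overlapping groups. Cd34, Grb10 and Rspo3 were named after their values were seen, and the library ratios of all 3 overlapped between the losses. Collagens had medians of 0.25 and 0.29 over 9 members, and sebaceous gland genes −0.13 and −0.053 over 11; without Ring1a/b 2KO 2 the Ring1 medians were 0.061 and 0.096.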
